A study of Drosophila melanogaster with 75 samples.

Results

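The comparison set all males that had been given a female, whether they mated or only courted, against males that had not. Of the 15 arrays of the series, 10 were from female-exposed males (5 mated and 5 courted) and 5 were from control males. All males were isogenized Canton-S virgins, raised in groups, moved to single vials and used when 5 days old, and each array held RNA from a pool of 30 heads. Mated males received a virgin female and copulated. Courted males received a virgin female that had been cauterized, and control males received no female. For the mated and control males the study's methods describe a mock transfer of the controls and collection in parallel at one time of day, 2 hrs after copulation had ended, but they say nothing of how the courted males behaved. The same RNA was read on Drosophila Genome 2.0 arrays (Affymetrix), and the values below are log2 intensities from GC-RMA, a background-adjusting summary of the probes of each probe set.

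Courtship in *Drosophila* is set off by visual cues and by pheromones that antennae, proboscis and forelegs detect, and it is carried out by neurons whose sex is specified by *fruitless* and *doublesex*. The head also holds fat body, an adipose and secretory tissue around the brain that stores lipid and protein and releases factors into the blood. Juvenile hormone, a lipid hormone made by the corpora allata next to the brain, acts on the fat body and on neurons and is broken down by esterases and epoxide hydrolases.

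Between 40.1% and 40.9% of the probe sets of each array had an intensity above 100, and 7631 of 18952 probe sets had a mean above 100 and were tested. All 18 photoreceptor genes and 14 of 15 glial genes that were measured by a probe set of their own were tested, whereas 0 of 10 gut and Malpighian tubule genes and 0 of 18 genes of the male reproductive tract reached the threshold. The summed intensity of the gut genes was 54.3 to 63.6 in control and 49.7 to 64.4 in exposed males. Of 15 ovary and eggshell genes 2 were tested, with a median of -0.06. A lower intensity in pooled heads can mean fewer cells of a type or less RNA in each cell, and these cannot be told apart here.

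No gene passed the test for female exposure. In limma, with Benjamini-Hochberg adjustment over the 7631 probe sets, 0 differed at an adjusted p under 0.05 (0% of those tested), and the lowest adjusted p was 0.213. At an unadjusted p under 0.05 there were 534 probe sets (7%), 274 with higher (3.59%) and 260 with lower values (3.41%) in exposed males. At an unadjusted p under 0.001 there were 15 (0.197%), 5 higher (0.0655%) and 10 lower (0.131%). The typical difference was small, with a median absolute value of 0.05 on the log2 scale against a median SE of 0.06, and 46% of probe sets had the higher value in exposed males. The count of 534 moved with single arrays, from 271 without control 3 to 762 without courted 4. All genes below are therefore given for exposure by their values and not as changed genes, and the 24 with the lowest p, 12 in each direction, come first. In the same limma fit mated against control called 3 probe sets at an adjusted p under 0.05 (0.0393%). They were those of *fit*, *CG31689* and *CG13360*, while courted against control called 0.

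Among the 12 with higher values in exposed males, 7 were higher than control in courted and mated males alike, and of these *l(3)72Dp* was higher in courted than in mated males. The lowest p of all probe sets belonged to *l(3)72Dp*. Its log2 intensity was 7.03, 7.16, 6.69, 6.78 and 7.10 in controls 1 to 5, and in the exposed males it was lowest at 7.18, had a median of 7.29 and was highest at 7.53. Each of the 10 exposed arrays lay above each of the 5 control arrays. The difference was 0.35 ± 0.05 (SE), or 1.27-fold (adjusted p = 0.213), with 0.26 ± 0.06 in mated and 0.44 ± 0.06 in courted males against the same controls, and mated minus courted was -0.18 ± 0.06. *Tmlh*, which encodes trimethyllysine hydroxylase, the first enzyme of carnitine synthesis, was at 10.65, 10.58, 10.79, 10.66 and 10.45 in controls and at 10.64 to 10.95 in exposed males, with a median of 10.86. The groups overlapped, mainly through control 3, although every exposed array was above the control array of its own number. The difference of *Tmlh* was 0.20 ± 0.04 (adjusted p = 0.323).

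The other 5 of these genes had mated minus courted differences between -0.08 and 0.06. *Psi*, an RNA-binding protein that represses splicing, was at 8.56 to 8.73 in controls and 8.69 to 9.09 in exposed males. *Pu*, GTP cyclohydrolase I, the entry enzyme of pteridine and tetrahydrobiopterin synthesis, was at 12.21 to 12.44 in controls and 12.39 to 12.57 in exposed males. In both genes the ranges met only at their edges. *CG10553*, *CG31300* and *CG10560* differed by 0.20 ± 0.05, 0.20 ± 0.05 and 0.21 ± 0.05, and for *CG31300* the tight controls, 10.35 to 10.47, were set against 10.44 to 10.72. All 7 genes were higher in every mated and every courted array than in the control array of that number. Differences of one sign in all 10 pairs were seen for 96 of the 7631 probe sets (1.26%), 34 higher (0.446%) and 62 lower (0.812%), but for these genes it follows in part from their choice by low p. The 10 pairs share the 5 control arrays and are not independent. By their values, courted 2 and 4 did not pair with the control arrays of their number.

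**Figure D1:**
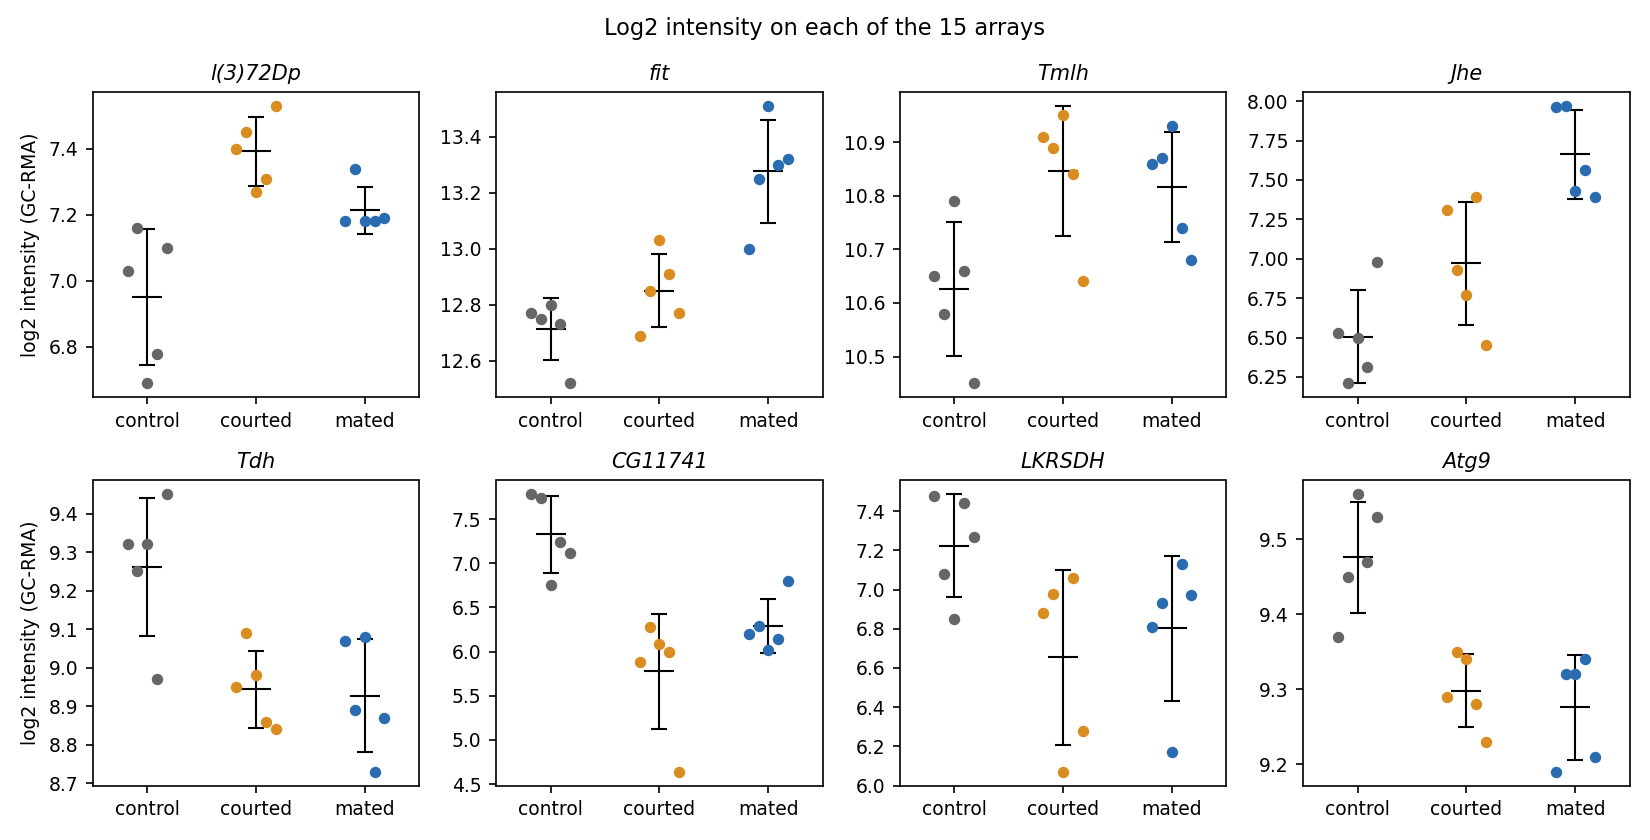
Log2 intensity (y axis, GC-RMA) of 8 genes on each of the 15 arrays, as points for the control, courted and mated groups, with the group mean and its SD (n = 5) as a bar and whiskers. The y axes do not start at 0. All exposed arrays of *l(3)72Dp* lie above, and all exposed arrays of *Atg9* below, the control arrays, while *fit* and *Jhe* are highest in the mated group.

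The remaining 5 genes with higher values owed them mostly to the mated males. *Jhe*, juvenile hormone esterase, was at 6.53, 6.21, 6.50, 6.31 and 6.98 in controls, at 7.31, 6.93, 6.77, 7.39 and 6.45 in courted males and at 7.96, 7.97, 7.43, 7.56 and 7.39 in mated males. The mated arrays were all above the controls, while 3 of the 5 courted arrays lay within the control range. Over both exposures *Jhe* was 0.81 ± 0.17 higher, or 1.75-fold (adjusted p = 0.466). Its p in limma was under 0.001 in GC-RMA, dChip PM and MAS5.0 alike, which held for 1 of the 7631 probe sets (0.0131%). The 3 versions read the same arrays and are no separate support. *Jhe* passed the filter of a mean above 100 through the exposed arrays, as most control arrays were below that intensity. The gene *fit* (*female-specific independent of transformer*), which encodes a secreted fat body protein, was at 12.77, 12.75, 12.80, 12.73 and 12.52 in controls, 12.69, 12.85, 13.03, 12.91 and 12.77 in courted males and, in mated males, 13 at the lowest (mated 1), 13.30 at the median and 13.51 at the highest. Courted males overlapped the controls and mated males did not. The exposed difference of *fit* was 0.35 ± 0.06 (adjusted p = 0.301), made up of 0.56 ± 0.07 in mated and 0.14 ± 0.07 in courted males. *Pss* (listed by the study as *CG4825*), phosphatidylserine synthase, *CG5618* and *CG13360* were also highest in mated males. Their differences from control were 0.32 to 0.55 in mated males and -0.02 (*CG13360*) to 0.06 in courted males.

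Of the 12 genes with lower values, 6 were low after both exposures, with mated minus courted differences from -0.03 to 0.15 except for *CG11741*. *Tdh*, threonine dehydrogenase, was at 9.32, 9.25, 9.32, 8.97 and 9.45 in controls and at 8.73 to 9.09 in exposed males, with a median of 8.92. Control 4 was the control array that lay among the exposed values. The difference was -0.33 ± 0.06 (adjusted p = 0.409), with -0.34 in mated and -0.32 in courted males. *LKRSDH*, the bifunctional enzyme that starts lysine breakdown, was at 7.48, 7.08, 6.85, 7.44 and 7.27 in controls and at 6.07 to 7.13 in exposed males, with a median of 6.90. Its lowest values came from courted 3 and 5 and mated 3, and the groups overlapped. *LKRSDH* differed by -0.50 ± 0.11, or 1.41-fold (adjusted p = 0.466).

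*CG11741* had the largest difference of the 24 genes. Its values were 7.78, 7.74, 6.75, 7.24 and 7.12 in controls, 5.88, 6.28, 6.09, 6.0 and 4.64 in courted males and 6.20, 6.29, 6.02, 6.14 and 6.80 in mated males. Mated 5 and control 3 were the arrays through which the groups overlapped. It was -1.04 ± 0.29 in mated and -1.55 ± 0.29 in courted males, which differed from each other by 0.52 ± 0.29. Over both exposures the difference was -1.29 ± 0.25 in GC-RMA, or 2.45-fold (adjusted p = 0.409), but -0.67 in dChip PM and -0.78 in MAS5.0. This gene was among the dimmer ones tested. It passed the filter of a mean above 100 only through the control arrays, where it was high. *Atg9*, a transmembrane protein that supplies membrane to forming autophagosomes, was at 9.37, 9.45, 9.56, 9.47 and 9.53 in controls and at 9.19 to 9.35 in exposed males, with a median of 9.30. The groups did not overlap, and the difference was -0.19 ± 0.04 (adjusted p = 0.466). *CG3036* differed by -0.28 ± 0.06, and *Hexim*, an inhibitor of the elongation factor P-TEFb, by -0.16 ± 0.03.

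The other 6 were lower in mated than in courted males, and in courted males lay between mated and control. *CG31689*, an ATPase by its annotation, had a mean of 12.50 ± 0.08 (SD, n = 5) in control, 12.37 ± 0.14 in courted and 12.13 ± 0.09 in mated males, and its exposed difference was -0.25 ± 0.04 (adjusted p = 0.213). *Agxt* (the study's *Spat*), serine-pyruvate aminotransferase, stood at 11.13 ± 0.17, 10.87 ± 0.11 and 10.69 ± 0.12 in the same order. *Gart* (*ade3*), a multifunctional enzyme of purine synthesis, stood at 9.95 ± 0.17, 9.76 ± 0.22 and 9.50 ± 0.17. The step from control to courted was -0.26 for *Agxt*, larger than the SDs of both groups, and -0.19 for *Gart*, within the SD of the courted group. *CG16898*, of unknown function, was 0.62 ± 0.13 lower on the log2 scale after exposure, with controls spread from 8.88 to 10.12, and *tx*, a basic helix-loop-helix factor, and *Reg-2*, annotated as a phosphatase, differed by -0.22 ± 0.05 and -0.24 ± 0.06.

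**Figure D2:**
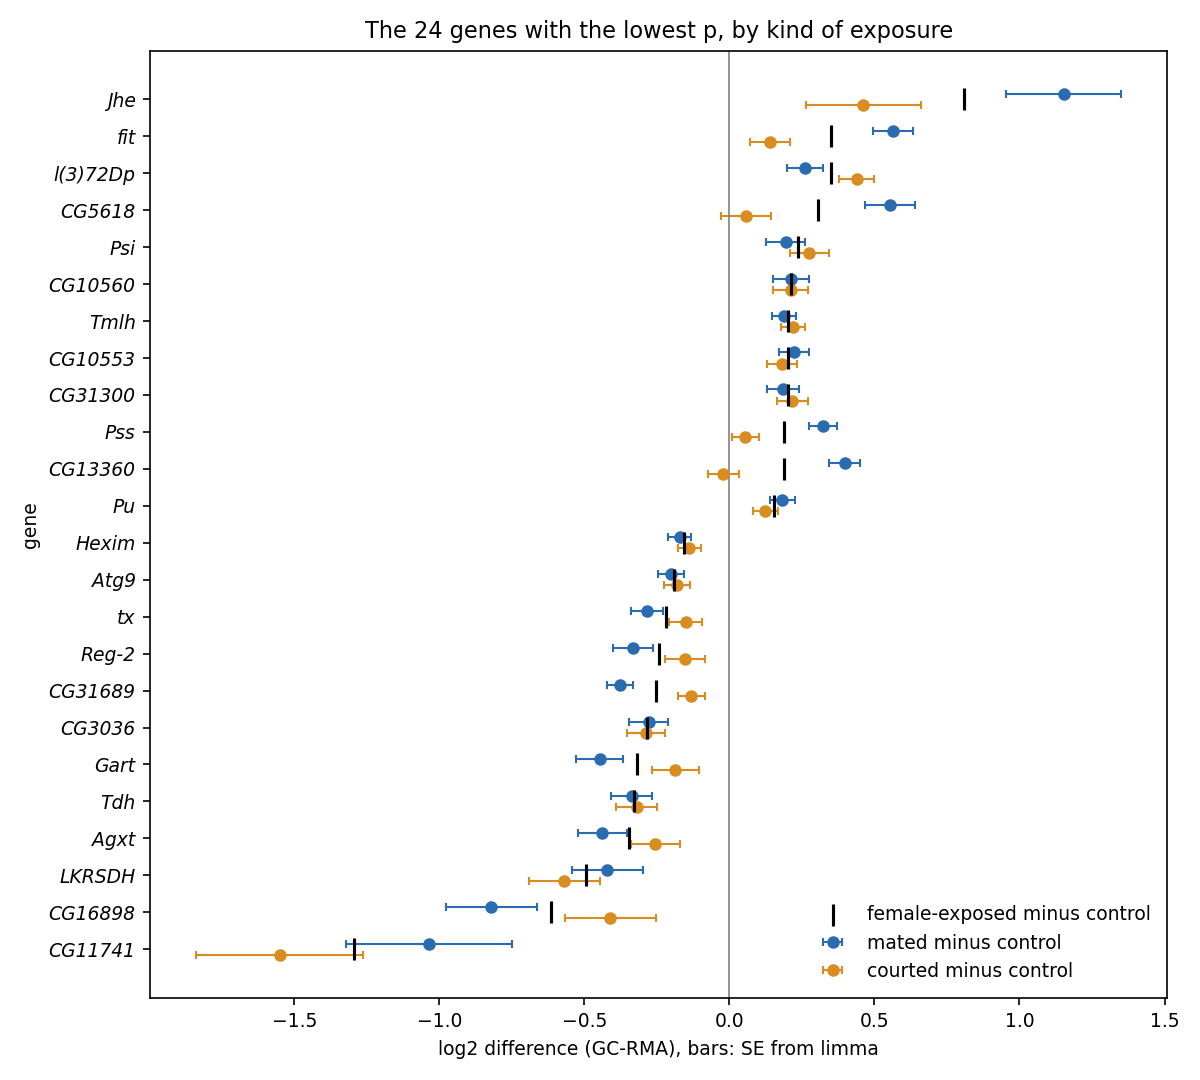
Log2 differences from control (x axis, GC-RMA) of the 24 genes with the lowest p (y axis), for mated and courted males as points with the SE from limma as whiskers, and for all exposed males as a black tick. Both kinds of exposure lie on the same side of 0 for all genes but *CG13360*, and the 2 differences of a gene share its control arrays. The mated point lies farther out for *Jhe*, *fit*, *CG5618*, *Pss* and *CG13360*, and the 2 points lie close together for *CG10560*, *Tmlh*, *Tdh*, *CG3036* and *Atg9*.

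Whether the 2 kinds of exposure differed was tested by setting mated against courted males in the same fit. The control arrays do not enter the difference but do enter its residual variance. It called 4 genes in limma at an adjusted p under 0.05 (0.0524% of those tested), and 3 of them rose and 1 fell in mated relative to courted males. *smp-30*, a relative of the calcium-binding regucalcin, was at 10.05, 10.05, 10.42, 10.06 and 10.14 in courted and at 9.43, 9.51, 9.35, 9.42 and 9.42 in mated males, and at 9.75 to 10.04 in controls. It fell by 0.72 ± 0.08 (adjusted p = 0.0142), and the courted arrays stood above all controls, by little, while the mated arrays stood below all of them. The mean of both exposures differed from control by -0.16 ± 0.07. *TBC1D5* (*CG8449*), a Rab GTPase activator, rose by 0.51 ± 0.07 (adjusted p = 0.0418), *CG13360* by 0.42 ± 0.05 (adjusted p = 0.0400) and *CG30002* by 0.35 ± 0.05 (adjusted p = 0.0418). For *TBC1D5* and *CG30002* the courted means of 10.74 and 10.89 were below the control means of 10.86 and 11.02.

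These 4 calls depended on single arrays. With control 1 or courted 4 left out, 2 genes were called, with control 2, control 4 or mated 4 left out 3, with control 3, control 5, courted 1, 2 or 3, or mated 2 or 3 left out 1, and with courted 5, mated 1 or mated 5 left out 0. *smp-30* was called in all of these except the last 3. Not all of the calls were among the 4 genes, as *fit* was called without control 1, and *CG16772* without courted 4 and without mated 4. MAS5.0 values gave 0 calls, and 338 probe sets had an unadjusted p under 0.05. In dChip PM *smp-30* alone of the 4 was called, and *TBC1D5*, *CG30002* and *CG13360* had an adjusted p of 0.0603, 0.0733 and 0.12. Next in order came *bgm*, a long-chain acyl-CoA ligase, at 0.58 ± 0.09 and *CG3999* at -0.58 ± 0.09 (adjusted p = 0.067 for both). Of the 24 genes chosen for exposure, 11 had an unadjusted p under 0.05 for mated against courted, where 4.18% of all probe sets did. Both contrasts use one residual variance per gene, and that of the 24 was part of what chose them.

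**Figure D3:**
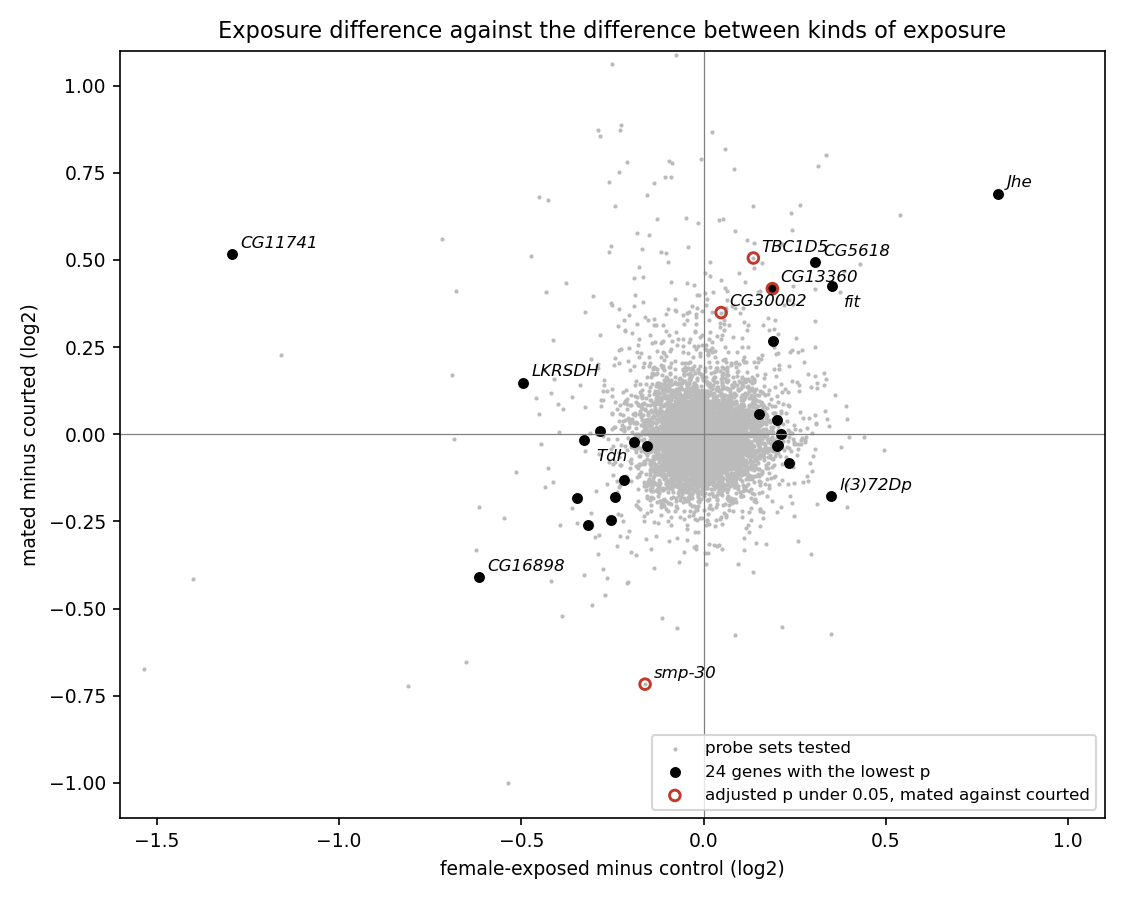
Female-exposed minus control (x axis, log2) against mated minus courted (y axis, log2) for the probe sets tested, each a grey point, with the 24 genes of lowest p in black and the 4 genes called for mated against courted ringed in red. The plotted range leaves out 11 probe sets. *Tdh* lies far from 0 on the x axis and near 0 on the y axis, *l(3)72Dp* and *LKRSDH* farther out on the x axis than on the y axis, *Jhe*, *fit* and *CG5618* lie away from 0 on both, and *smp-30* and *CG30002* mainly on the y axis.

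Arrays of exposed and control males did not overlap at all for 7 probe sets (0.0917%), 1 higher and 6 lower (0.0786%) in exposed males. Beside *l(3)72Dp* and *Atg9* these were *Oat*, *Pgam5*, *Cyp4e3*, *mio* and *CG13367*, all lower. *Oat*, ornithine aminotransferase, was at 9.90, 9.94, 10.07, 9.93 and 9.86 in controls and at 9.50 to 9.83 in exposed males. *Pgam5*, a mitochondrial protein phosphatase, was at 9.78 to 10.05 in controls and 9.61 to 9.76 in exposed males. *mio*, a subunit of a complex that regulates TORC1, was at 8.02 to 8.30 in controls and 7.82 to 8.01 in exposed males. The gaps between the groups were thus narrow, at most 0.05 on the log2 scale. *Cyp4e3*, a cytochrome P450, had the largest difference of these 7 genes, -0.43 ± 0.11 (adjusted p = 0.511), with courted 4 the lowest array at 7.96. *CG13367* was at 8.55 to 8.64 in controls and 8.21 to 8.49 in exposed males.

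All 24 genes of lowest p had the same direction in the dChip PM and the MAS5.0 values of the same arrays. Over all probe sets 65.2% did, and the 24 had been chosen by their GC-RMA values, so the 3 versions are not separate experiments. An unadjusted p under 0.05 in limma was reached by 22 genes in dChip PM and by 22 in MAS5.0. Over all probe sets 1335 of 15538 reached it in dChip PM and 597 of 8517 in MAS5.0. The counts of 22 follow in part from the choice of the 24 by low p on the same arrays. *Hexim* missed it in both (-0.06 and -0.01), *Atg9* in dChip PM (-0.15) and *Pu* in MAS5.0 (0.06). The GC-RMA difference was the larger one for 23 of the 24 genes when set against dChip PM, with *Psi* (0.24 against 0.26) as the exception.

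Genes of the fat body and of hormone signalling had no common direction. Of 12 tested fat body genes tied to the sex-determination hierarchy or to sex-biased expression, 6 had higher and 6 lower values, with a median of 0.00 beside -0.01 for all probe sets. *fit* and *CG16772* were high (0.31 ± 0.11 for the latter) and *CG16898* was low. *CG16772* was at 11.73 to 12.11 in control, 11.66 to 12.28 in courted and 12.30 to 12.87 in mated males, and its courted arrays overlapped the controls. Of 5 tested genes of juvenile hormone metabolism and response, *Jhe* had the highest difference and *Kr-h1* the lowest. *Kr-h1*, a zinc finger factor that juvenile hormone induces, was at 10.27, 10.08, 9.46, 9.90 and 9.98 in controls and at 9.11 to 9.76 in exposed males, with a median of 9.59. Control 3 was the control array that fell among the exposed values, and the difference was -0.39 ± 0.10 (adjusted p = 0.533), similar in mated (-0.35) and courted males (-0.42).

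Storage and fasting genes were mixed in the same way. *Lsp2*, a larval serum storage protein also made by adult fat body, was at 13.08, 13.02, 13.14, 12.92 and 12.42 in controls and at 12.20 to 12.74 in exposed males, with a median of 12.45. Of the controls only control 5 lay within the exposed range. The difference was -0.46 ± 0.12 (adjusted p = 0.511), and 4 of 8 storage genes were lower and 4 higher, among them *Lsd-1*, a perilipin of lipid droplets, at 0.21 ± 0.09. Of 13 insulin and fasting genes, 9 had lower values. *tobi*, a glucosidase under insulin and adipokinetic hormone control, and *bmm*, the fat body triglyceride lipase, were at -0.39 ± 0.12 and -0.19 ± 0.06, whereas *AkhR*, the adipokinetic hormone receptor, was at 0.13 ± 0.05. Adjusted p ran from 0.638 to 0.685 for these last 4 genes. Against control, *bmm* was at -0.29 ± 0.07 in mated and -0.09 ± 0.07 in courted males, and *tobi* at -0.52 ± 0.14 and -0.26 ± 0.14.

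Enzymes of amino acid breakdown and synthesis stood on both sides. Of 20 tested genes that handle amino acids or one-carbon units, 11 had lower values and 9 higher, and at an unadjusted p under 0.05 there were 5 lower and 2 higher, beside 3.41% and 3.59% of all probe sets. The 2 higher genes were *CG5618* and *Gnmt* (*CG6188*), glycine N-methyltransferase, which had the largest difference of the list, 0.54 ± 0.19, and stood at 12.31 ± 0.54 (SD, n = 5) in control, 12.53 ± 0.27 in courted and 13.16 ± 0.17 in mated males. *Gnmt* was named after its values were seen. The 5 lower ones included *Agxt*, *Oat* and *P5cr-2* (*CG5840*), which encodes a pyrroline-5-carboxylate reductase of proline synthesis. *P5cr-2* stood at 11.05 ± 0.16 (SD, n = 5) in control, 10.90 ± 0.20 in courted and 10.61 ± 0.07 in mated males. The median of the list was -0.05. The study had already reported *Agxt*, *P5cr-2*, *CG5618* and *Gnmt* from the same mated and control arrays. The counts of the list are therefore no independent support for a shared response. *LKRSDH* and *Tdh*, which also degrade amino acids, were not on the list and were named for their low p. Purine synthesis had 6 of 9 genes lower, *Gart* with the lowest value and the only one at an unadjusted p under 0.05.

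Respiratory chain and ATP synthase genes had lower values in 15 of 16 cases, but the differences were slight, from -0.08 to 0.02 with a median of -0.04, and 0 of them had an unadjusted p under 0.05. Of 15 glycolytic genes 9 were lower, and *Ald1*, an aldolase, was the one at an unadjusted p under 0.05, with a higher value of 0.14 ± 0.06. Fatty acid oxidation had 7 of 11 lower. *bgm* was higher by 0.24 ± 0.08 and *Acox57D-d*, an acyl-CoA oxidase, by 0.18 ± 0.07, and *whd*, the carnitine palmitoyltransferase of mitochondria, differed by -0.14 ± 0.06. Of 8 fatty acid and hydrocarbon synthesis genes 5 were higher, with a median of 0.02, and *Cyp4g1*, a P450 of hydrocarbon synthesis, named here after its values were seen, varied widely (-1.37 ± 1.39). For *bgm* the higher value came from mated males, 11.76 ± 0.16 (SD, n = 5) against 11.17 ± 0.24 in courted and 11.22 ± 0.18 in control males.

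**Figure D4:**
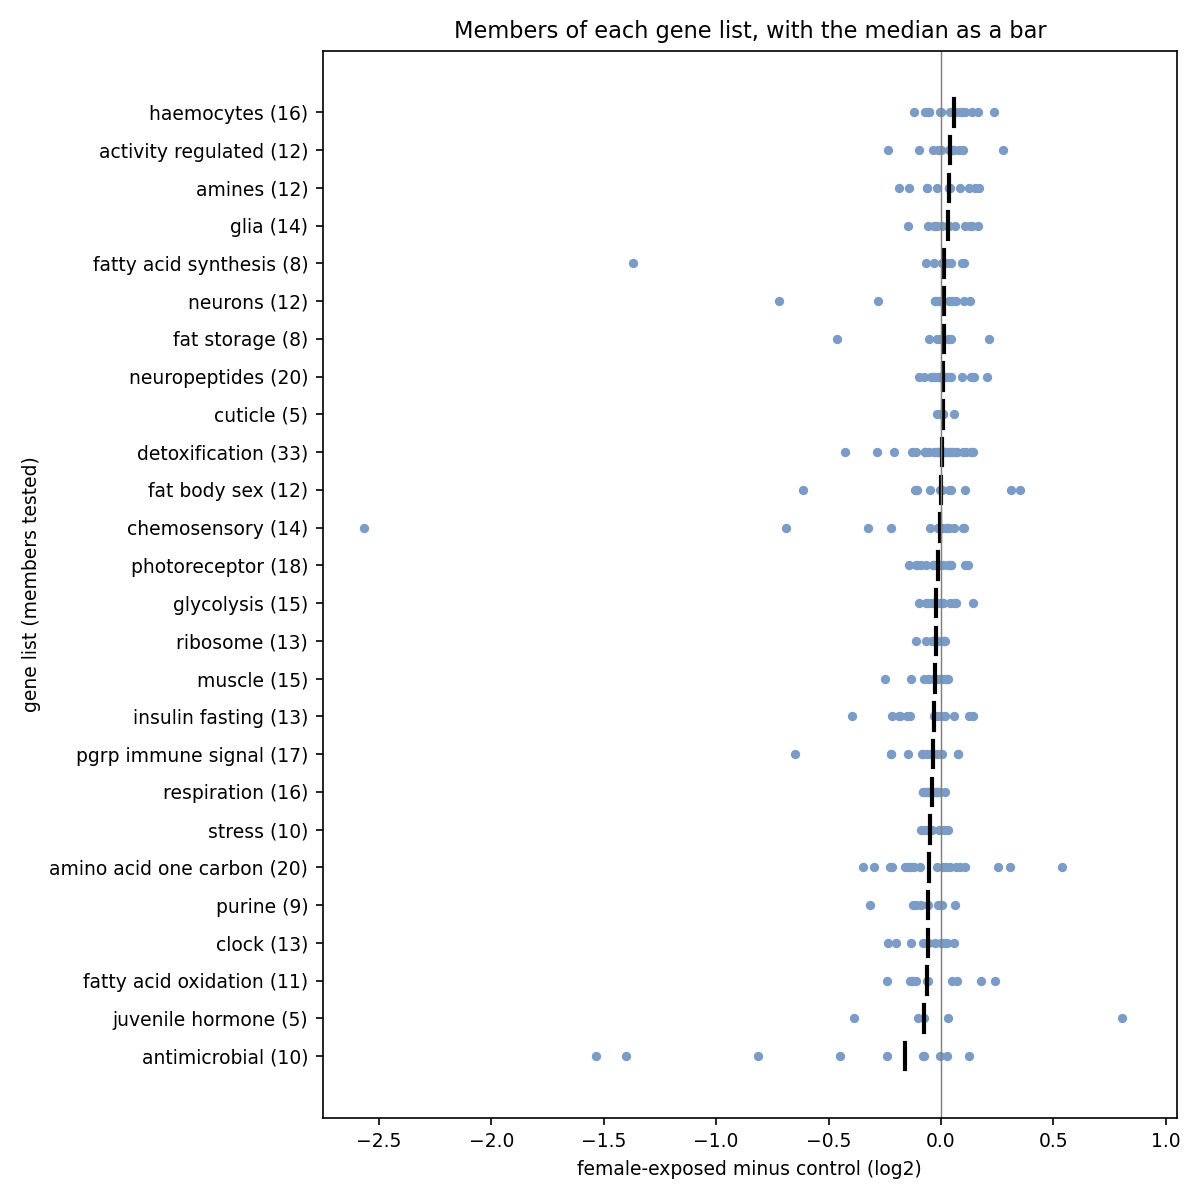
Female-exposed minus control log2 differences (x axis, GC-RMA) of the tested members of 26 gene lists (y axis, number of members in brackets), each member a point and the median of the list a black bar. The medians lie between -0.16 for antimicrobial peptides and 0.06 for haemocytes, close to the -0.01 of all probe sets, and single members such as *Jhe*, *Lsp2* and *Obp83b* lie far from the medians of their lists. *Obp83b* passed the filter only through the control arrays in which it was high.

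Neuronal signalling genes had small differences. Among 20 tested neuropeptide precursors, 11 had higher values, and the 4 with an unadjusted p under 0.05 were all higher, where 46% and 3.59% of all probe sets were so. They were *CCHa2*, a nutrient-dependent peptide of fat body and gut, *Nplp1*, *Dh44*, a diuretic hormone related to corticotropin-releasing factor, and *sNPF*, the short neuropeptide F precursor. *CCHa2* was at 12.24, 11.86, 11.98, 12.28 and 11.96 in controls and 12.09 to 12.40 in exposed males, with a median of 12.28, and the groups overlapped through controls 1 and 4. The differences were 0.20 ± 0.06, 0.14 ± 0.06, 0.14 ± 0.05 and 0.15 ± 0.07 in the order named, and the median of the list was 0.01. Of these 4 genes only *Nplp1* had an unadjusted p under 0.05 in dChip PM, and only *CCHa2* in MAS5.0. Of 12 genes that neuronal activity induces, 8 were higher. *Hr38*, a nuclear receptor used as an activity marker, was higher by 0.28 ± 0.11 in GC-RMA and by 0.32 in dChip PM and 0.36 in MAS5.0 (adjusted p = 0.685 in GC-RMA), with courted 4 the highest array at 9.18. *Arc2*, an Arc homologue, went the other way at -0.24 ± 0.10.

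Of 13 clock genes 9 had lower values, and *tim*, *per* and *Slob* had an unadjusted p under 0.05, as had 3.41% of all probe sets in that direction. *tim*, a core repressor of the clock, was at 8.88, 9.08, 8.77, 8.66 and 8.80 in controls, 8.64, 8.72, 8.49, 9.08 and 8.64 in courted and 8.61, 8.60, 8.31, 8.38 and 8.53 in mated males. The mated arrays lay below all controls, and courted 4 was as high as the highest control. *tim* and *per*, its partner, differed by -0.24 ± 0.09 and -0.20 ± 0.09 (adjusted p = 0.685 and 0.703). In dChip PM the median of the clock list was 0.00, against -0.06 in GC-RMA. Of 12 tested genes of biogenic amines 7 were higher, and *Pu* was higher while *SerT*, the serotonin transporter, differed by -0.14 ± 0.05. In dChip PM and MAS5.0 *SerT* differed by only -0.04 and -0.03, and *Pu* by 0.09 and 0.06.

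For 3 odorant-binding protein genes the difference rested on 2 control arrays. *Obp83b*, an odorant-binding protein of the antenna, was at 2.40, 10.04, 8.87, 2.40 and 2.36 in controls, and in exposed males at 2.39 to 4.61 with a median of 2.40, the low end of GC-RMA values. Controls 2 and 3 stood far above that end, mated 2 (4.61) and courted 2 (2.67) somewhat above it and no other array did. *Obp83b* passed the filter of a mean above 100 only through controls 2 and 3. Its difference of -2.57 ± 0.99 (adjusted p = 0.685) became -1.61 without control 2, -1.59 without control 3 and 0.01 without both. *Obp69a* and *lush*, another pair of odorant-binding protein genes, were also highest in these 2 controls, at 9.91 and 8.97 and at 8.61 and 7.95. Their differences of -0.69 and -0.32 turned to 0.06 and 0.06 without them. Of 36 chemosensory genes measured 14 were tested, 7 higher and 7 lower, with a median of 0.00, and their summed intensity was 123076 to 136545 in control and 117098 to 136654 in exposed males. What part the antennae left on the heads had in this was not tested. Without controls 2 and 3 no gene passed the test for exposure in limma, with 220 probe sets at an unadjusted p under 0.05, and *l(3)72Dp*, *CG11741* and *Lsp2* differed by 0.33, -1.44 and -0.38.

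**Figure D5:**
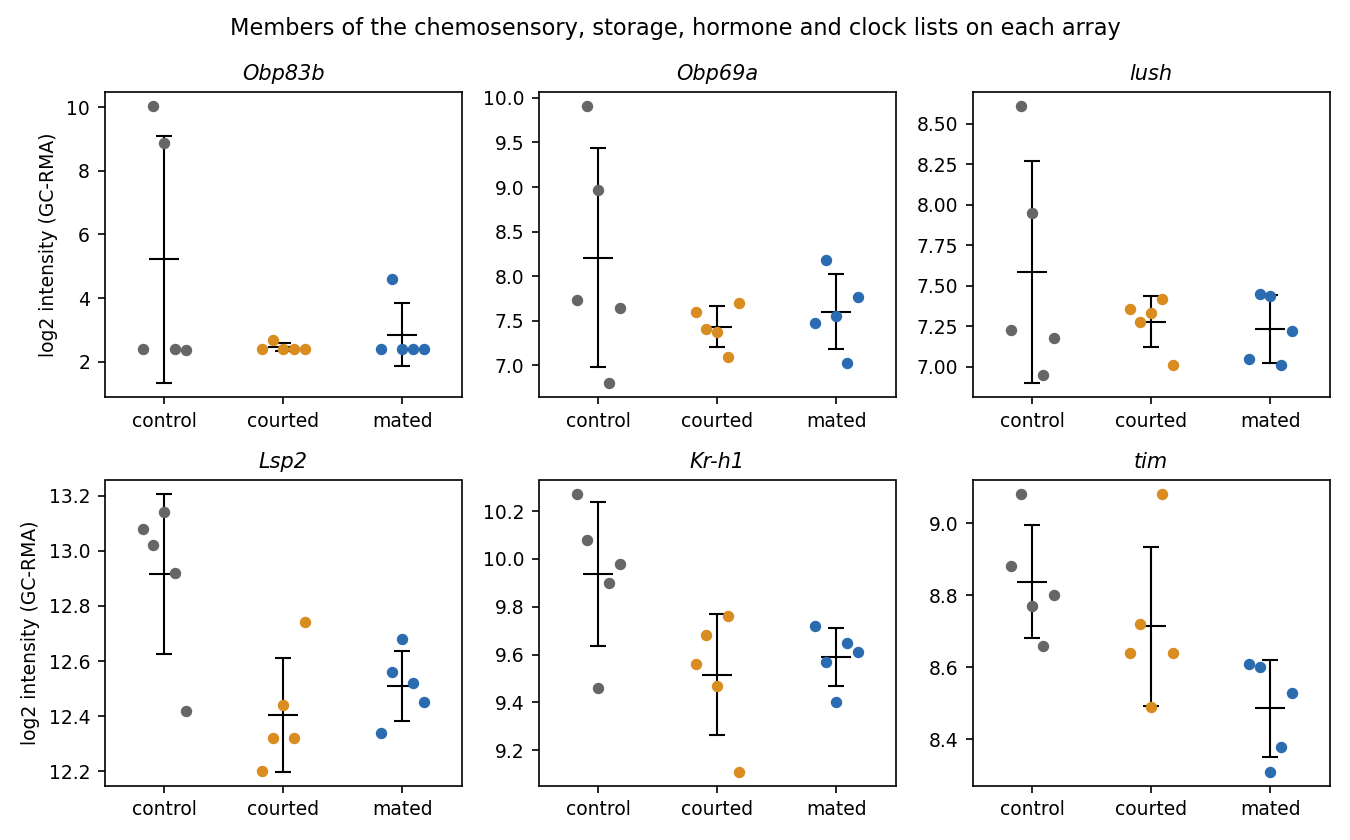
Log2 intensity (y axis, GC-RMA) of 6 list members on each of the 15 arrays, as points by group with the mean and SD (n = 5). The y axes do not start at 0. *Obp83b*, *Obp69a* and *lush* stand out in the same 2 control arrays, while *Lsp2* and *Kr-h1* are lower in most exposed arrays than in most controls, and *tim* mainly in mated males.

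Immune genes varied more between arrays of one group than between groups. Of 10 tested antimicrobial peptide genes 8 had lower values in exposed males, with a median of -0.16, and 0 had an unadjusted p under 0.05. *AttD*, an attacin, ran from 5.39 to 13.31 in controls and from 3.37 to 12.13 in exposed males, and *CecB*, a cecropin, from 3.95 to 10.30 and from 3.87 to 10.02. The ranges overlapped almost wholly, and the differences had SEs of 1.48 and 0.88. Against the control array of the same number *CecB* was lower in 5 of 5 mated and 3 of 5 courted arrays, and *AttD* in 4 of 5 and 3 of 5. Of 17 genes of peptidoglycan recognition and immune signalling, 13 were lower, with a median of -0.04 and 0 at an unadjusted p under 0.05. Among 33 detoxification genes, 18 were higher and 15 lower, and the 3 with an unadjusted p under 0.05, a share near the 7% of all probe sets, were *Cyp4e3*, *Cyp309a1* (-0.29 ± 0.13) and *Cyp6a9* (0.13 ± 0.05). Of 10 stress genes 8 were lower, with *Sod2*, the mitochondrial superoxide dismutase, at -0.09 ± 0.04. In dChip PM and MAS5.0 *Sod2* was at -0.04 and -0.02.

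Marker genes of the cell types of the head showed no large shift. The medians of photoreceptor, neuronal, glial, haemocyte and muscle genes were -0.02, 0.01, 0.03, 0.06 and -0.03, and 0, 1, 1, 1 and 1 of 18, 12, 14, 16 and 15 genes had an unadjusted p under 0.05, beside 7% of all probe sets. These single genes were *cac*, a voltage-gated calcium channel subunit, at -0.72 ± 0.28, *nrv2*, a subunit of the glial sodium pump, at 0.14 ± 0.06, *crq*, a scavenger receptor of haemocytes, at 0.16 ± 0.07, and *Act79B*, a muscle actin, at -0.25 ± 0.08. *cac* was low in all courted arrays (6.66 to 7.15) and spread from 6.05 to 8.18 in mated and from 6.69 to 8.79 in control males. The difference of *nrv2* was 0.03 in dChip PM and 0.10 in MAS5.0. The 5 tested cuticle genes and the 13 ribosomal protein genes had medians of 0.01 and -0.02.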

How the data were processed

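Heads of 15 pools were measured on 15 arrays. The authors deposited 5 versions of each array, 75 columns of linear intensity made by dChip (PM and PM-MM), by MAS5.0 and by GC-RMA, the last both in R and in GeneSpring. The submitters' processing notes name GCOS 1.2 and GCRMA, and no source used here gives the other versions. The versions of an array counted as 1 replicate. GC-RMA intensities were used, dChip PM and MAS5.0 served as alternatives, and PM-MM and GeneSpring columns were not used. Intensities below 1 were set to 1 and log2 was taken. Of 18952 probe sets 183 controls were left out, 13646 had 1 gene, 402 several and 4721 none by the platform annotation. The 7631 with a mean above 100 (dChip PM above 50) were fitted in limma 3.58.1 (R 4.3.3) over all 15 arrays, with the replicate number as a block. The contrast was the mean of the mated and courted group means minus the control mean, and p-values were adjusted by Benjamini-Hochberg over all probe sets at 0.05. The number of arrays limits the precision, and p-values cover the spread between pools. The procedure was tested on simulated data in which all 3 groups shared the block, unlike courted 2 and 4 here.

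A gene is given by its brightest probe set annotated to it alone. The genes named are the 12 with the lowest p in each direction, up to 4 members with the lowest p of each of 29 gene lists (only where p was under 0.05 or the difference above 0.3), the 6 lowest for mated against courted, those at p under 0.001 in 3 algorithms and those without overlap. Genes named in the study's text, also part of the rule, were taken only where they met another part. Comparison, lists and named genes were chosen with earlier results of these data known. Of 618 listed genes 483 had a probe set of their own. The study's methods pair control and mated pools collected together, and the labels say a male of each group was collected with each mated male. In deviations from group means, control and mated arrays of one number correlated at 0.33, 0.46, 0.48, 0.43 and 0.09 across probe sets, which are not independent. Control and courted arrays correlated at 0.15, -0.26, 0.18, -0.31 and 0.33, and mated and courted arrays at 0.04, -0.45, 0.16, -0.44 and 0.01. By their values, numbers 2 and 4 thus did not pair the courted arrays, and no number clearly paired mated with courted arrays. The test of mated against courted males still used the number as a block.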

Additional observations from a re-analysis of the deposited data

Results flagged for a closer look

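Among 207 groups of 5 arrays (69 named genes in 3 groups), 18 held a single array far from the other 4, in 16 genes. Chance alone gives about 1 such group in 20. In controls these were *fit* (control 5 at 12.52), *CG31300* (control 2 at 10.47), *smp-30* (control 5 at 9.75), *DptB*, a diptericin (control 3 at 12.86), and *nrv2* (control 2 at 12.25). Courted arrays stood apart for *CG5618* (courted 4 at 11.42), *CG11741* (courted 5 at 4.64), *CG16898* (courted 3 at 9.43), *smp-30* (courted 3 at 10.42), *Cyp4e3* (courted 4 at 7.96), *mio* (courted 3 at 7.82), *AkhR* (courted 3 at 12.19), *whd* (courted 5 at 11.50) and *Obp83b* (courted 2 at 2.67). Mated arrays stood apart for *l(3)72Dp* (mated 2 at 7.34), *tobi* (mated 1 at 10.20), *per* (mated 3 at 6.65) and *Obp83b* (mated 2 at 4.61).

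By limma's test of the difference itself, mated and courted males differed in the main fit for *smp-30* (-0.72), *TBC1D5* (0.51), *CG13360* (0.42) and *CG30002* (0.35). Without the replicate block *CG13360* and *CG30002* were not called, and *CG3999* and *CG16772* were called beside *smp-30* and *TBC1D5*. Of the 4 genes only *smp-30* was called in dChip PM and 0 in MAS5.0, and the calls depended on single arrays.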

How the results depend on the processing

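The 0 calls for exposure held under every alternative, with lowest adjusted p from 0.0759 to 0.714 when 1 array was left out. The count at an unadjusted p under 0.05 was 534, but 1335 of 15538 probe sets in dChip PM. Of 1854 alternative values of 69 named genes for exposure, 1850 kept their direction. The others, all without controls 2 and 3, an alternative chosen after seeing the data, were *Obp83b* (0.0091), *Obp69a* (0.060), *lush* (0.061) and *CG3999* (-0.0025 against 0.09). Calls for mated against courted numbered 4, 0 in MAS5.0, 0 without the filter on low values, 0 without controls 2 and 3, and 0 to 3 with 1 array left out. They were 4 in dChip PM, 1 of them shared, and 5 by a Cyber-T style test, 2 of them shared. Where there were 0 calls in MAS5.0, without the filter and without the 2 controls, 338, 517 and 287 probe sets had an unadjusted p under 0.05. Without the replicate block exposure had 0 calls, 436 at an unadjusted p under 0.05 and a lowest adjusted p of 0.536, and mated against courted had 4, of which 2 were shared. With the block as a random effect of control and mated arrays only, also chosen after seeing the data, there were 0 and 3 calls. Of 650 list medians 638 moved by less than the replicate spread. The filter and the low signal of dim genes such as *CG11741* limit what could be measured.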
